A study of Mus musculus with 3 samples.

Results

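The cell surface genes examined here are 8 markers of embryonal carcinoma and other pluripotent stem cells, Alpl, Alppl2, Cd9, Cd24a, Pecam1, Podxl, Prom1 and Bsg, and 2 markers of somatic cells, Thy1 and Cd44. They were chosen by gene symbol, as every probe set whose platform annotation names that symbol alone. This gave 17 probe sets for 10 genes, of 34945 probe sets for 18193 genes with a single symbol and 45101 probe sets in all. Icam1, another somatic surface gene, with 1 probe set, is not a member and was measured alongside Thy1 and Cd44 for comparison. No probe set names a member together with another gene.

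The RNA came from F9, an established mouse embryonal carcinoma line derived from a teratocarcinoma, in its undifferentiated state. All 3 samples form 1 group, numbered replicates 1 to 3, kept untreated on 0.2% gelatin with 10% fetal calf serum in the medium until about 80% of the plate was covered. Each was hybridised to its own Affymetrix Mouse Genome 430 2.0 array. No differentiated, normal or treated cells belong to the design, so the question asked of each gene is whether its signal lies above the background of the same arrays.

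Embryonal carcinoma cells are the stem cells of teratocarcinomas and share many surface molecules with embryonic stem cells and the inner cell mass. The classical marks are high alkaline phosphatase activity, carbohydrate epitopes carried by proteins and lipids, and adhesion molecules of the tetraspanin and immunoglobulin families. Thy-1, CD44 and ICAM-1 are used in the opposite sense, to mark fibroblasts, mesenchymal stromal cells, leukocytes or activated endothelium.

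Background was read from 127 probe sets for 114 olfactory, vomeronasal and taste receptor and keratin-associated protein genes. Their 95th percentile on an array served as that array's threshold. It lay at a signal of 44.6, 46.1 and 43.2 on replicates 1, 2 and 3. Median signals over all probe sets were 36.0 to 37.8. The arrays correlated at Pearson's r of 0.987 to 0.991 across probe sets above background (log2 signal), which are not independent replicates. The ratio of 3′ to 5′ control probe sets, a measure of RNA integrity, was 0.794 to 0.814 for Gapdh and 1.17 to 1.24 for beta-actin. Signals below are linear array intensities, given per replicate or as mean ± SD (n = 3). Log2 values are log2 signal minus log2 threshold of the same array, ± limma's moderated SE. Moderation draws the variance of each probe set toward a value pooled over all probe sets, bright and dim. A gene is called above background at a limma adjusted p under 0.05. Signals of different probe sets depend on how well each probe binds, so the genes are set against background and not ranked against each other.

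Of the 8 stem cell surface genes, 6 (75.0%) were above background: Alpl, Cd9, Cd24a, Pecam1, Podxl and Bsg. Alppl2 and Prom1 were not. Of Thy1, Cd44 and Icam1, 2 (66.7%) were above background, Thy1 and Icam1, and Cd44 was not. Over all named genes outside the background families 51.1% passed the same limma test (9237 of 18079). Both sets thus held genes above and genes not above background, and the labels of stem cell and somatic marker did not divide the calls. With 8 and 3 genes, the difference between the shares was not tested. The median log2 value was 2.72 over the 8 genes and 1.09 over Thy1, Cd44 and Icam1, beside 0.72 over all named genes. These medians pool probe sets that bind unequally, so they do not compare levels between the sets. That of the 3 comparison genes is the value of Icam1. By probe set, 8 of 12 for the stem cell genes and 2 of 6 for the comparison genes passed, against 45.2% of single-symbol probe sets outside the background families.

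**Figure D1:**
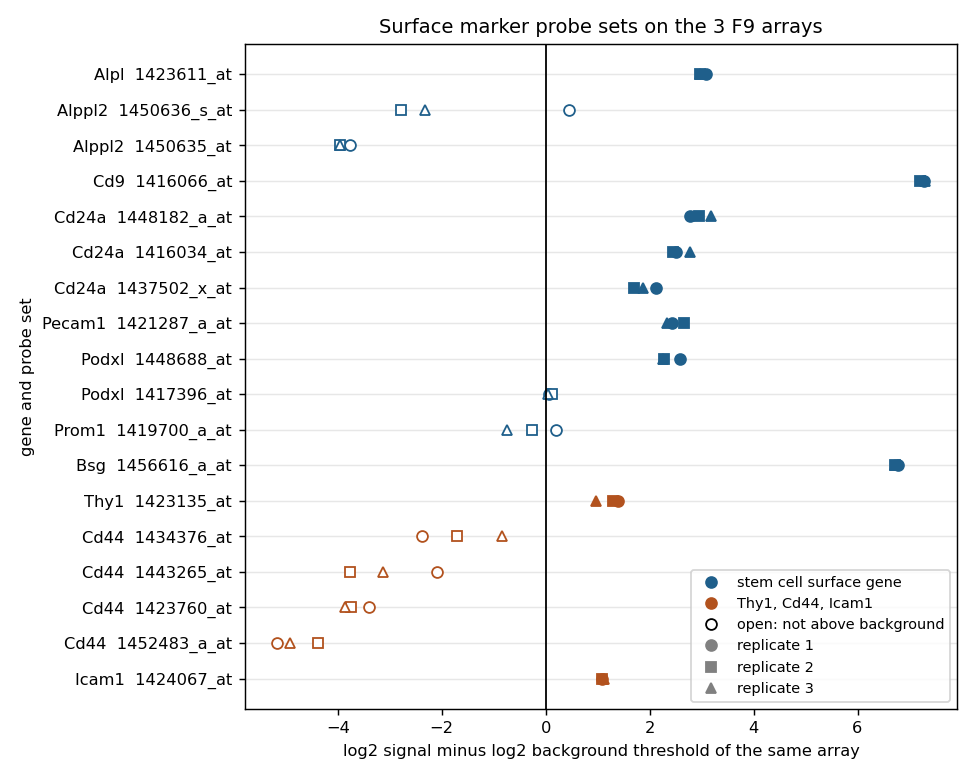
Log2 signal minus log2 background threshold of the same array (x axis) for each of the 18 probe sets (y axis, gene and probe set), with 1 symbol per replicate. Stem cell surface genes are blue, Thy1, Cd44 and Icam1 orange, and open symbols mark probe sets not above background; Cd9 and Bsg sit near 7, both Alppl2 probe sets are open, and all 4 Cd44 probe sets lie left of the threshold on every array.

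The alkaline phosphatases were split. Alpl encodes the tissue-nonspecific enzyme, whose activity at the outer membrane is the stain used for undifferentiated stem cell colonies. Its signal was 379.8, 358.8 and 340.1 on replicates 1, 2 and 3, with a mean of 359.6 ± 19.9. All 3 arrays were above background and close together. The log2 value was 3.01 ± 0.11, or 8.06-fold over the threshold (limma adjusted p = 0.000194).

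Alppl2 encodes the embryonic alkaline phosphatase of the mouse, known from the preimplantation embryo. Its probe set 1450635_at had signals of 3.28, 2.96 and 2.78, far below the threshold on every array, at a log2 value of -3.90 ± 0.12. The other, 1450636_s_at, had 60.8 on replicate 1, against 6.70 on replicate 2 and 8.58 on replicate 3. Only replicate 1 exceeded its array's threshold, by 0.45 log2 units, and the other two lay at -2.78 and -2.33 log2 units. The fitted value was -1.55 ± 0.80. Its SD of log2 signal, 1.74, was larger than that of 95.8% of probe sets in the same decile of mean signal. The suffix _s_at marks probes that can match more than 1 transcript. The intestinal phosphatase genes Alpi (36.2 ± 6.48) and Akp3 (22.1 ± 5.04) were not above background, which leaves Alpl as the 1 of 4 genes of the family that was. Among all named genes 51.1% were above background. With a lower threshold read from bacterial control probe sets Alpi passed too (limma adjusted p = 0.0318), beside 60.5% of all named genes.

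RefSeq start-site windows, each 250 bases before to 50 after an annotated start (GRCm38.p6), were at hand for 6 of the 11 genes, in 8 windows. Those shown belong to Alpl, which passed, and Alppl2, its relative that did not, and to Cd9, which passed, and Cd44, which did not. They are written 5′ to 3′ on the gene's strand, here the minus strand in each case, with CG dinucleotides in capitals.
Alpl chr4:137796335-137796634: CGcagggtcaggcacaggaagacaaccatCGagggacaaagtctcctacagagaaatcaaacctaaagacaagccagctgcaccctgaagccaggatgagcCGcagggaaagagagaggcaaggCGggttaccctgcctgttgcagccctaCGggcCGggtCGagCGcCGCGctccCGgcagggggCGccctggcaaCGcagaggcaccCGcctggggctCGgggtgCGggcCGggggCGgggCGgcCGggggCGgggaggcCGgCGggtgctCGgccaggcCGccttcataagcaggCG
Alppl2 chr1:87089879-87090178: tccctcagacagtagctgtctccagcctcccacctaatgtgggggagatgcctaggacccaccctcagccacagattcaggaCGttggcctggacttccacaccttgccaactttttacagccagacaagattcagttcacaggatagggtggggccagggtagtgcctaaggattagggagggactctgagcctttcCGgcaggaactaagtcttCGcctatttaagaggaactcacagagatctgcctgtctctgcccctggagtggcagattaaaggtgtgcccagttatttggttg
Cd9 chr6:125494711-125495010: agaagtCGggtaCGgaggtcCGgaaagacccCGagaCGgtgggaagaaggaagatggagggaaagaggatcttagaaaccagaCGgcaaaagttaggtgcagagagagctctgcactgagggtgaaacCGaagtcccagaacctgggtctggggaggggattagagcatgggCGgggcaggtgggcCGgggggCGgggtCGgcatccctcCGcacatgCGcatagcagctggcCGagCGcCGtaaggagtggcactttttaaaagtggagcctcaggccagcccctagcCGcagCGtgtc
Cd44 chr2:102901616-102901915: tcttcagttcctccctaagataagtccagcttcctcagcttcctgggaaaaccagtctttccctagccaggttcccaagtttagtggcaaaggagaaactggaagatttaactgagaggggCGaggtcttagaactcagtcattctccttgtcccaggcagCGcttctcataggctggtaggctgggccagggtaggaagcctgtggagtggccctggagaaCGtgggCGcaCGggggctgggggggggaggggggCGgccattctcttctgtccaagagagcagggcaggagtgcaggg

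The windows differed in CG content. The Alpl window shown held 26 CG dinucleotides and that of Cd9 18, against 3 in the Alppl2 window and 6 in the Cd44 window. Over 32851 such windows of all genes the median was 7 and the quartiles 3 and 20. Among the windows not shown, a second annotated Alpl start had 4, the 2 Prom1 starts 10 and 4, and Icam1 19. The GC box, searched as GGGCGG on both strands, occurred 3 times for the first Alpl start, 2 times each for Cd9 and Icam1, once each for Cd44 and 1 Prom1 start, and in neither the Alppl2 window nor the second Alpl window; 35.7% of all windows hold it. TATAAA, the letters of the TATA box, searched on both strands likewise, was found in the Icam1 window and, on the opposite strand to the gene, in the second Alpl window (13.6% of all windows). The octamer ATGCAAAT, the sequence bound by POU factors, was found on either strand in none of the 8 (1.74% of all windows). These are descriptions of 300 bases, and the arrays do not show which start was used. The windows shown were picked by gene and call, and a link between CG content and the calls was not tested.

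Cd9 was above background on every array. It encodes a tetraspanin, a membrane protein with 4 spans that gathers integrins and immunoglobulin proteins into patches. The signal was 6939.8, 6835 and 6799.7, within 1.02-fold from the highest to the lowest array. The log2 value was 7.26 ± 0.11, about 154-fold over the threshold (limma adjusted p = 0.000109).

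Of 9 measured tetraspanins and immunoglobulin partners of Cd9, 6 were above background, beside 51.1% of all named genes. Cd81, a close relative that pairs with many of the same partners, had a signal of 4696 ± 140 and a log2 value of 6.72. Cd151, a partner of laminin-binding integrins, stood at 663 ± 71.6 on its brightest probe set. It was not called when every probe set of a gene had to pass. Cd82 had 81.8 ± 25.1 and passed with a limma adjusted p of 0.0353, on 1 of its 2 probe sets. Cd82 lost that call with any 1 array left out (limma adjusted p = 0.0808 without replicate 1, 0.0981 without replicate 2 and 0.0812 without replicate 3). Its log2 value was then 0.60, 0.93 and 0.97, beside 0.83 with all arrays. The call was also lost with the 99th percentile of the background families (limma adjusted p = 0.150). Each setting left 5 of the 9. Of all named genes, 48.1% to 48.6% were called with 1 array left out and 46.2% with the 99th percentile. The genes not above background were Cd37 (63.5 ± 25.4) and Cd53 (19.4 ± 17.1), both known from leukocytes, and Tspan8 (52.0 ± 16.8).

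Cd24a encodes heat-stable antigen, a small mucin-like protein held by a glycosylphosphatidylinositol (GPI) anchor, also present on blood precursors and neurons. It is the only member with 3 probe sets above background. Probe set 1448182_a_at had signals of 305.9, 356.2 and 392.9, probe set 1416034_at 255, 252.2 and 296.5, and probe set 1437502_x_at 194.8, 150.7 and 157.2. Every array was above background with each of them. Their log2 values were 2.97 ± 0.14, 2.58 ± 0.13 and 1.90 ± 0.14 (limma adjusted p = 0.000338, 0.000404 and 0.00112). Replicate 3 was the highest array for the first and the second, and replicate 1 for the last, so the 3 probe sets did not all peak on the same array.

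Pecam1 encodes CD31, an adhesion molecule of the immunoglobulin family found on inner cell mass and embryonic stem cells as well as on endothelium, platelets and leukocytes. Its signal was 241.4, 291.8 and 216.6, above background on all 3 arrays. The log2 value was 2.48 ± 0.13 (limma adjusted p = 0.00044).

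Because Pecam1 also marks endothelium and blood, those lists were read on the same arrays. Of 12 endothelial markers 3 were above background and 9 were not, against 51.1% above background among all named genes. The receptors Kdr (44.0 ± 4.52), Tek (24.7 ± 6.28) and Tie1 (1.61 ± 0.451) and the vascular cadherin Cdh5 (48.7 ± 25.1) did not pass. Esam (412 ± 29.6), Robo4 (182 ± 17.0) and Eng (116 ± 10.9) did, though a dimmer Eng probe set did not (limma adjusted p = 0.0595). Of 10 measured blood cell markers 2 passed, Csf1r (86.1 ± 7.27), on 1 of its 3 probe sets, and Cd68 (79.5 ± 5.38). With the 99th percentile of the background families neither was called (limma adjusted p = 0.111 and 0.170), beside 46.2% of all named genes. Another 2, the platelet genes Itga2b (80.3 ± 32.4) and Gp1bb (67.0 ± 18.2), lay over the threshold on each array and passed before adjustment, but not after it (limma adjusted p = 0.0917 and 0.0934). The pan-leukocyte phosphatase Ptprc (10.6 ± 6.54), the T cell gene Cd3e (7.20 ± 0.328) and Cd48 (2.02 ± 1.22) did not pass. With the lower threshold read from bacterial control probe sets 4 of 12 endothelial and 5 of 10 blood markers passed. Of all named genes 60.5% did. The signals of a list, summed over its genes, ranged over the arrays from 876 to 979 for the endothelial and from 399 to 489 for the blood list. These sums pool probe sets that bind unequally and include genes not above background, so they do not compare the lists. In a bulk sample, a few cells with much of a transcript and many cells with little cannot be told apart, and the part of other cells in the Pecam1 signal was not tested.

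Podxl was above background on 1 of its 2 probe sets. It encodes podocalyxin, a sialylated mucin of the CD34 family that in human embryonal carcinoma cells carries the TRA-1-60 and TRA-1-81 epitopes. Probe set 1448688_at had signals of 268.7, 224.7 and 206.1 and a log2 value of 2.38 ± 0.13 (limma adjusted p = 0.00053). Probe set 1417396_at had 46.4, 50.2 and 44.7, just over the threshold on each array, with a log2 value of 0.078 ± 0.11 (limma adjusted p = 0.597). The call for Podxl therefore rests on the choice of the brighter probe set.

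Prom1 encodes prominin-1 (CD133), a protein with 5 membrane spans found on membrane protrusions and used to isolate stem and progenitor cells. Its only probe set had signals of 50.8, 38.2 and 25.8. Replicate 1 lay 0.19 log2 units over its threshold, and replicates 2 and 3 at -0.27 and -0.74. The fitted value was -0.28 ± 0.24, and with a 1.97-fold spread between arrays it could not be placed above or below. No value here shows that Prom1 was absent.

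Among 8 relatives and binding partners of podocalyxin and prominin, 6 were above background, beside 51.1% of all named genes. Ezr, which encodes ezrin, the linker from podocalyxin to the actin cortex, had a signal of 1602 ± 45.8 and a log2 value of 5.17. The other 5 were Rdx, Msn, Slc9a3r1, Slc9a3r2 and Cd34, with Cd34 at 97.8 ± 11.8 (log2 value 1.13, limma adjusted p = 0.00511, and 0.0535 with the 99th percentile of the background families). Slc9a3r2 was not called when every probe set of a gene had to pass. The closest homologues were not above background, Podxl2 at 1.49 ± 0.355 and Prom2 at 23.4 ± 7.21.

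Bsg encodes basigin (CD147), an immunoglobulin protein that carries monocarboxylate transporters to the surface and is a carrier of the Lewis X epitope in embryonal carcinoma cells. Its signal was 4925, 4849.8 and 4543, and all arrays were within 1.08-fold. The log2 value was 6.74 ± 0.11, or 107-fold over the threshold (limma adjusted p = 0.000109). Of 7 measured partners, relatives and ligands 5 were above background, beside 51.1% of all named genes. The lactate transporters that travel with basigin were Slc16a1 (MCT1) at 2370.1 ± 264 and Slc16a3 (MCT4) at 507 ± 137, both above background. Slc16a1 was not called when every probe set of a gene had to pass. Slc16a7 (1.56 ± 0.892), whose product pairs with embigin, and Slc16a8 (14.8 ± 6.29), known from the retinal pigment epithelium, were not.

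Thy1 and Icam1 were above background and Cd44 was not. Thy1 encodes a GPI-anchored immunoglobulin protein of T cells, neurons and fibroblasts. Its signal was 116, 113 and 84.9, above the threshold on all 3 arrays. Replicate 3 was the lowest, and the arrays differed by 1.37-fold. The log2 value was 1.22 ± 0.14, or 2.33-fold over the threshold (limma adjusted p = 0.00395).

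Icam1 encodes a ligand of leukocyte integrins that inflammatory cytokines induce on many cells. Its signal was 93.9, 97.1 and 93.7, the smallest spread among the comparison genes and smaller than that of all but 1.13% of probe sets in the same decile of mean signal. The log2 value was 1.09 ± 0.11, or 2.13-fold over the threshold (limma adjusted p = 0.00228). None of the 8 ICAM relatives, Vcam1 and leukocyte integrins listed with it was above background by limma's test, against 51.1% of all named genes. At an unadjusted p under 0.05 the count was also 0, and 0 exceeded the threshold on all 3 arrays. Icam2 stood at 4.86 ± 1.72, Icam4 at 39.1 ± 18.0, Icam5 at 5.56 ± 0.868 and Vcam1 at 39.2 ± 12.1.

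Cd44 encodes the main hyaluronan receptor, which binds the matrix polymer and links to ezrin and its relatives. It has 4 probe sets, more than any other member, and each lay below the threshold on every array. The brightest, 1434376_at, had signals of 8.54, 14.2 and 24.0 and a log2 value of -1.65 ± 0.36. Probe set 1443265_at had 10.5, 3.39 and 4.91, probe set 1423760_at 4.24, 3.44 and 2.96, and probe set 1452483_a_at 1.24, 2.20 and 1.42. Their log2 values were -3.00, -3.67 and -4.83. Within a probe set the highest array exceeded the lowest by 1.44-fold to 3.10-fold, and no array reached its threshold.

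Thy1 and Cd44 also mark mesenchymal cells, and 1 of 12 mesenchymal markers was above background, against 51.1% of all named genes. Nt5e, the ecto-5′-nucleotidase gene, had a signal of 293 ± 24.5. The growth factor receptors Pdgfra (37.6 ± 10.7) and Pdgfrb (43.0 ± 5.43) and the fibrillar collagens Col1a1 (22.0 ± 11.2) and Col1a2 (39.3 ± 10.3) were not. When every probe set of a gene had to pass, Nt5e was not called. That left 0 of 12, beside 31.3% of all named genes. With the lower threshold read from bacterial control probe sets Pdgfra, Pdgfrb and Col1a2 passed (limma adjusted p = 0.0390, 0.00511 and 0.0345). With Vcam1, which passed too, that made 5 of 12, beside 60.5% of all named genes. The summed signal of this list, genes not above background included, was 520 to 572. The part of mesenchymal cells in the Thy1 signal was not tested. All 8 markers of undifferentiated cells passed, with log2 values of 7.25 for Pou5f1, 6.75 for Sox2, 6.77 for Nanog and 7.10 for Zfp42. When every probe set of a gene had to pass, 6 of these 8 were called, beside 31.3% of all named genes.

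**Figure D2:**
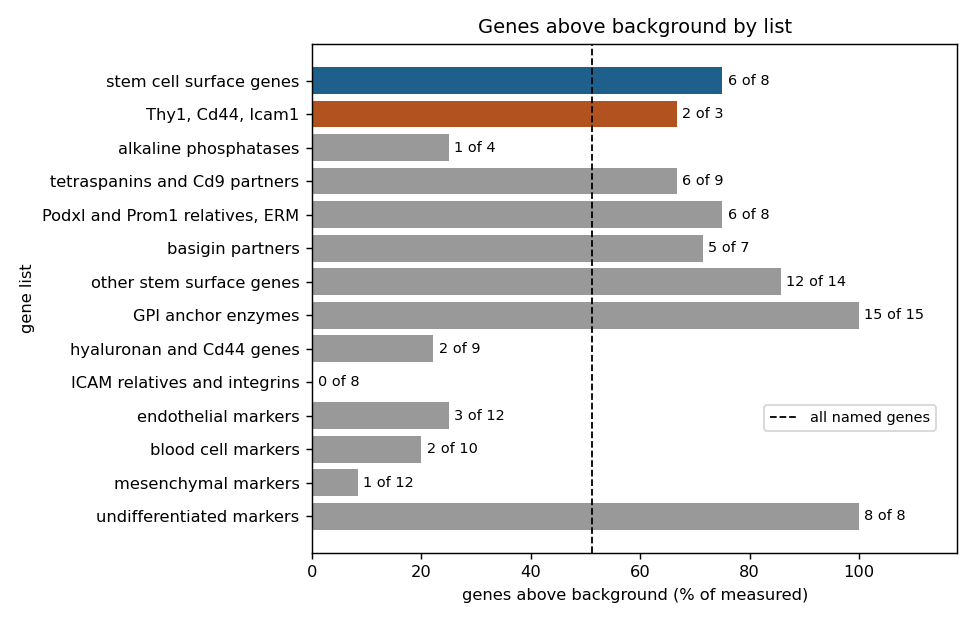
Percentage of measured genes above background (x axis) for each list (y axis), with counts beside the bars; the dashed line marks the 51.1% of all named genes. The stem cell surface genes stand at 6 of 8 and Thy1, Cd44 and Icam1 at 2 of 3, while the endothelial, blood and mesenchymal lists stand at 3 of 12, 2 of 10 and 1 of 12. The lists were chosen for their ties to the surface genes and carry no test.

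Of 14 other surface genes or epitope enzymes used to mark such cells, 12 were above background, against 51.1% of all named genes. They included Epcam (1703 ± 121) and the E-cadherin gene Cdh1 (1727 ± 119), epithelial adhesion molecules of stem cells, Tdgf1 (3044 ± 164), which encodes the Nodal co-receptor Cripto, and Kit (219 ± 6.46), the stem cell factor receptor. The 2 that were not were the fucosyltransferase genes Fut9 (31.2 ± 17.0) and Fut4 (15.1 ± 11.4), whose enzymes can complete the SSEA-1 (Lewis X) epitope.

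The spread between arrays depended on the signal. Over all probe sets the median SD of log2 signal was 0.081 in the brightest decile and 1.23 in the second dimmest. The 10 probe sets above background had SDs between 0.015 (Cd9) and 0.25 (Thy1). Both Cd9 and Icam1 (0.029) had smaller SDs than nearly all probe sets of like signal, at percentiles 2.86 and 1.13 of their deciles, whereas Cd24a 1448182_a_at (0.18) lay at percentile 76.2. With 3 arrays an SD is itself uncertain. The labels do not say whether the replicates were separate cultures, so the p-values cover only variation among these samples, some or all possibly technical. They rest on the moderated SE, which for Icam1 (0.11) is set largely by the pooled variance and not by its own spread. Each array's threshold was taken as fixed, so its own uncertainty is not in the p-values.

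**Figure D3:**
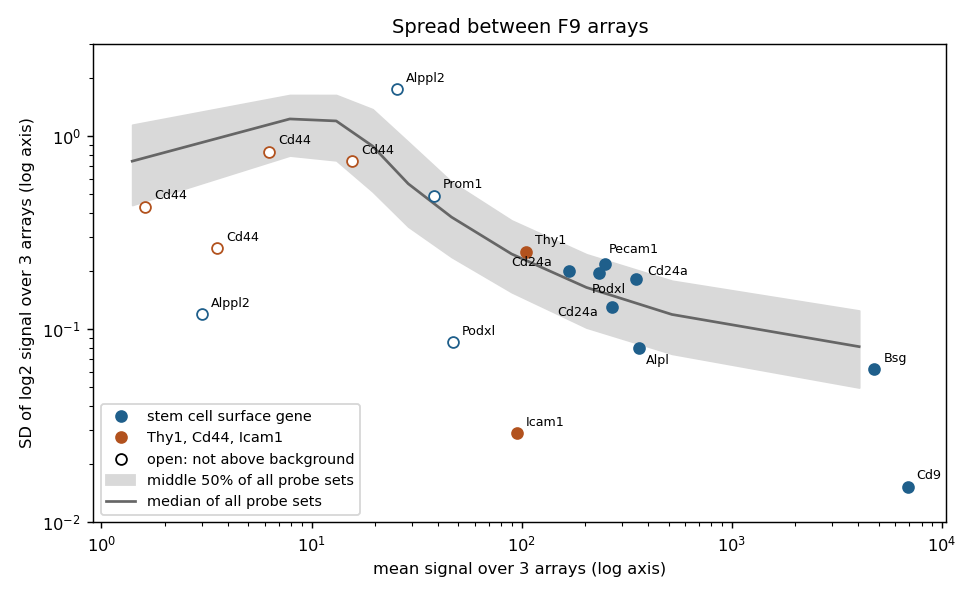
SD of log2 signal over the 3 arrays (y axis, log scale) against mean signal (x axis, log scale) for the 18 probe sets, over the median and middle 50% of all probe sets in deciles of mean signal. Filled points are above background (blue, stem cell surface genes; orange, Thy1 and Icam1), and 1 Alppl2 probe set has the highest SD of the 18, at 1.74.

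The calls were then compared across 14 other settings of the limma fit or of the choice of probe set, and with a count of arrays over the threshold that uses no test. Alpl, Cd9, Cd24a, Pecam1 and Bsg, and likewise Thy1 and Icam1, were above background in every one that was run, and Alppl2 and Cd44 in none. Thy1 and Icam1 came nearest to losing their calls, with limma adjusted p-values of up to 0.0325 and 0.0453. Podxl lost its call when every probe set had to pass, a rule under which 31.3% of all named genes were called and 5 of the 8 stem cell surface genes. Prom1 gained one, at a log2 value of 0.73, with the lower threshold read from bacterial control probe sets (limma adjusted p = 0.0441, range over the alternatives 0.0441 to 1). That threshold made the count 7 of 8, beside 60.5% of all named genes.

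**Figure D4:**
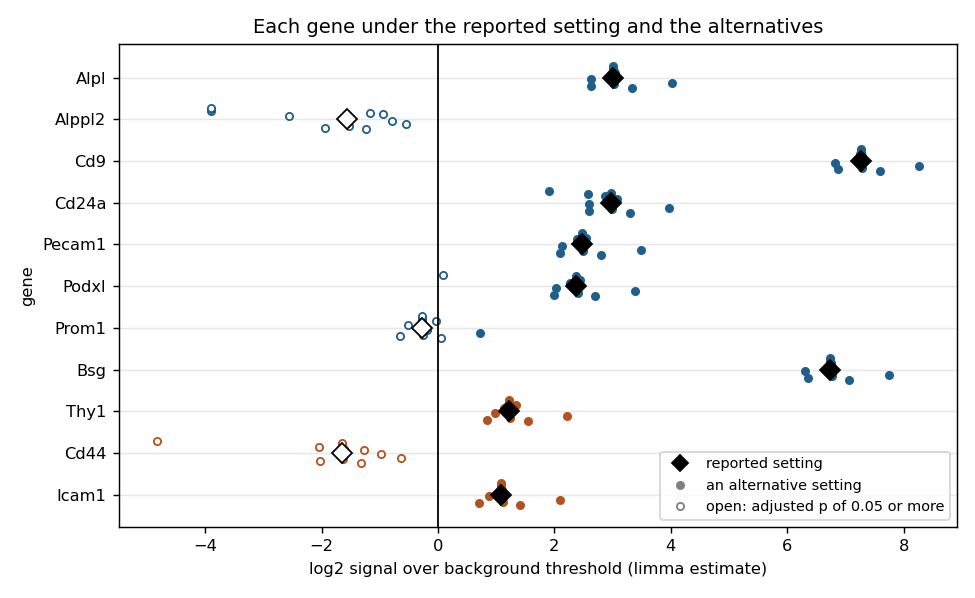
Limma estimate of log2 signal over the background threshold (x axis) for each gene (y axis) under the reported setting (black diamond) and each alternative (small circle); open symbols have an adjusted p of 0.05 or more. The estimates for Alpl, Cd9, Cd24a, Pecam1, Bsg, Thy1 and Icam1 stay right of the threshold, those for Alppl2 and Cd44 left of it, and those for Prom1 run from -0.66 to 0.73.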

How the data were processed

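Total RNA from 3 F9 samples was measured on Affymetrix Mouse Genome 430 2.0 arrays. The authors deposited 1 linear signal intensity per probe set and array, made with GCOS 1.4 per the submitters' processing notes; the signal algorithm is not given in the sources used here, nor are detection calls. The deposited intensities were already scaled, since the mean after trimming 2% at each end was 250 on every array, and they were used as they stand. Scaling hides any difference in total RNA per cell.

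Probe sets were named from the platform annotation of 2016, and the IDs of all 11 genes matched RefSeq's GRCm38.p6 table under the same symbol. A further 6 genes of the lists were not analysed here. A gene with several probe sets took the brightest. Log2 signal minus the array's log2 threshold was fitted with limma 3.58.1 in R 4.3.3 (intercept, eBayes, one-sided above 0), and p-values were adjusted by Benjamini-Hochberg over the 45101 probe sets. The script was tested on simulated data. The alternatives were other percentiles and background families, quantile normalization, a pseudocount of 16, a minimum mean signal of 20, other probe set rules, no test, and leaving out each replicate. The number of arrays limits the precision.

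The members and lists were chosen with earlier results of these data known. The text names all members and Icam1 with every probe set, both other alkaline phosphatases, the first 4 measured genes of each list in written order, and at most 3 more, by alphabet, with a call unlike that of the list's majority. Rdx, Msn, Slc9a3r1, Slc9a3r2, Itga2b, Gp1bb, Esrp1 and Esrp2 are named outside that rule, after their values were seen. Likeness of pattern to other genes was not computed, since replicates of 1 group carry no pattern across conditions.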

Additional observations from a re-analysis of the deposited data

How the results depend on the processing

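The count of stem cell surface genes above background was 6 under the reported setting and 5 to 7 of 8 under the alternatives, and that of Thy1, Cd44 and Icam1 was 2 under every alternative run. Of the 18 probe sets, 10 were called as reported and 10 to 12 under the alternatives. Of 226 recomputed values for single genes and probe sets, 221 kept both their direction and their call; of the others 3 changed sign and 2 kept their sign with another call. With the 90th percentile of the background families Prom1 lay above the threshold, at 0.046 log2 units (limma adjusted p = 0.885), and with the bacterial controls at 0.73. The dimmer Podxl probe set lay at -0.31 with the 99th percentile and passed at 1.08 with the bacterial controls (limma adjusted p = 0.00262, range over the alternatives 0.00262 to 1.00). The bacterial threshold was lower than the reported one, at signals of 20.6 to 23.9. When every probe set of a gene had to pass, Podxl was not called (0.078) and the count over all named genes was 5659 in place of 9237; a stricter rule calls fewer genes by construction. With any 1 replicate left out, the stem cell count was 6, the comparison count 2, the probe set count 10, and the count over all named genes 8704 to 8780. A variance trend in eBayes was added after the data were seen and left all 3 counts of surface genes and probe sets as reported. Over the alternatives the share of all named genes called ran from 31.3% (every probe set) to 60.5% (bacterial threshold). The blood list ran from 0 to 5 of 10 called and the mesenchymal list from 0 to 5 of 12. Endothelial markers ran from 2 to 4 of 12, tetraspanins from 3 to 8 of 9 and basigin partners from 3 to 5 of 7. Other stem cell surface genes ran from 7 to 12 of 14 and undifferentiated markers from 6 to 8 of 8. Podocalyxin and prominin relatives ran from 5 to 6 of 8 and GPI anchor enzymes from 7 to 15 of 15. Alkaline phosphatases ran from 1 to 2 of 4. The hyaluronan list ran from 2 to 3 of 9 and the ICAM list from 0 to 1 of 8. No paired analysis was possible because all samples form 1 group. For Prom1, the SE of 0.24 over 3 arrays was nearly as large as its distance of -0.28 from the threshold.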

Other observations

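Alpl, Alppl2, Cd24a and Thy1 encode proteins held by a GPI anchor, which the enzymes of the endoplasmic reticulum build and attach. All 15 measured genes of that pathway were above background by the limma test used in the report, against 51.1% of all named genes. Piga, which encodes the catalytic subunit of the first step, had a signal of 958 ± 141 and a log2 value of 4.42. Other subunits of the same enzyme stood at 142 ± 2.35 (Pigc), 187 ± 14.1 (Pigh) and 862 ± 85.0 (Pigq). When every probe set of a gene had to pass, 7 of the 15 were called, against 31.3% of all named genes.

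Of 9 measured genes of hyaluronan, the ligand of Cd44, and of Cd44 splicing, 2 were above background, against 51.1% of all named genes. The hyaluronan synthase genes Has1 (43.4 ± 19.1), Has2 (17.1 ± 14.4) and Has3 (4.30 ± 3.00) did not pass, nor did the splicing regulator genes Esrp1 (47.6 ± 16.2) and Esrp2 (44.2 ± 22.6). Hyal2 (294 ± 15.4), a GPI-anchored hyaluronidase, and Hmmr (1310 ± 56.7), a hyaluronan-binding protein of the mitotic spindle, did. Has1, Esrp1 and Esrp2 lay near the threshold, at log2 values of -0.15, 0.03 and -0.13. With the lower threshold read from bacterial control probe sets Esrp1 passed (limma adjusted p = 0.0274). That made 3 of 9, beside 60.5% of all named genes.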
